A study of Homo sapiens with 6 samples.

Results

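Decorin (DCN), lumican (LUM), fibronectin (FN1), SPARC, periostin (POSTN), thrombospondin-1 (THBS1), fibrillin-1 (FBN1), lysyl oxidase (LOX), CCN1 and CCN2 are 10 genes for glycoproteins, proteoglycans and a crosslinking enzyme that fibroblasts place in the extracellular matrix. They were chosen by name, as 10 of the 19821 protein-coding genes examined, and their R-loop peaks were described in senescent, quiescent and proliferating IMR90 cells. Of the 10 genes, 7 carried a peak in the senescent list, 4 in the quiescent list and 9 in the proliferating list, beside 80.3%, 34.4% and 83.4% of all protein-coding genes in the same order. The share of the gene covered by peaks was lower in senescent than in proliferating cells for all 9 genes with a peak, as for 84.5% of all such genes. FBN1 and SPARC each turned round under some ways of shortening the lists to a common size, but not under the same ones. Among the 7 genes with peaks in both lists, the senescent share ran from 0.139 times the proliferating share at CCN2 to 0.766 times at FBN1. DCN and LUM had no senescent peak. POSTN had no peak in any list.

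An R-loop forms when RNA pairs with one strand of DNA and leaves the other strand unpaired. R-loops form behind transcribing polymerase, often near gene starts, and stretches in which the RNA-like strand is rich in G favour them. Fibroblasts of the lung build and renew the matrix with these proteins. Small leucine-rich proteoglycans such as decorin and lumican bind collagen fibrils, fibronectin and fibrillin assemble into fibrils, lysyl oxidase crosslinks collagen and elastin, and matricellular proteins such as SPARC, periostin, thrombospondin-1 and the CCN proteins sit in the matrix and alter how cells attach to it and respond to growth factors. CCN1 and CCN2 are also immediate early genes and are standard targets of the YAP and TEAD transcription factors.

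IMR90 is a fibroblast line from human embryonic lung, here called wild type and kept at 2% oxygen in all states. Senescent cells ectopically expressed oncogenic Ras, quiescent cells had been starved, and proliferating cells carried a control vector. Neither the Ras construct nor the length of starvation is given in the labels. The assay was MapR, a form of CUT&RUN in which catalytically dead RNase H joined to micrococcal nuclease (RH-MNase) binds RNA-DNA hybrids and cuts the DNA around them. Of the series' 6 libraries, the 3 made with RH-MNase were used here, 1 for each state, and those made with the GST-MNase control enzyme were not analysed here. There are no replicates, so no difference below has an error or a test, and each value describes 1 library.

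The senescent list held 85564 peaks over 54.1 Mb, the quiescent list 9736 peaks over 4.12 Mb and the proliferating list 101802 peaks over 85.4 Mb. Median peak width was 468 bp in the senescent list, 352 bp in the quiescent list and 550 bp in the proliferating list. Read depth is unknown, so a shorter list from fewer reads and one from fewer hybrids cannot be told apart, nor can fewer cells with a hybrid and less signal per cell. Fibroblast marker genes had a peak in 6 of 6 senescent, 3 of 6 quiescent and 6 of 6 proliferating cases, with medians of 20.2%, 3.04% and 41.6% of the locus covered in that order. Epithelial markers had a peak in 4 of 5, 2 of 5 and 4 of 5 cases in the same order, endothelial markers in 4 of 4, 0 of 4 and 4 of 4, and blood markers in 3 of 4, 0 of 4 and 4 of 4. A MapR peak is not a measure of expression, and the markers therefore do not test the identity of the cells.

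Promoter sequence from RefSeq (GRCh38.p14) was found for 7 of the 10 genes, and 5 promoters are shown because they span the range from peaks in all lists to peaks in none. Each is the 250 bases before the gene start, read 5′ to 3′ on the coding strand, with runs of at least 4 G in capitals. FN1 lies at chr2:215436069-215436318, SPARC at chr5:151686916-151687165, LOX at chr5:122078260-122078509, CCN2 at chr6:131951373-131951622 and POSTN at chr13:37598769-37599018, all on the minus strand. For LOX the most upstream of 3 annotated starts is shown.
FN1: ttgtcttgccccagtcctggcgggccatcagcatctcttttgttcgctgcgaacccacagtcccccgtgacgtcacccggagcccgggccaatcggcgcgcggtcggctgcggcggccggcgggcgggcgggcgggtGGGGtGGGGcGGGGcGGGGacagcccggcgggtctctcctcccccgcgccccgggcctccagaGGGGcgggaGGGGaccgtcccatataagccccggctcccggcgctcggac
SPARC: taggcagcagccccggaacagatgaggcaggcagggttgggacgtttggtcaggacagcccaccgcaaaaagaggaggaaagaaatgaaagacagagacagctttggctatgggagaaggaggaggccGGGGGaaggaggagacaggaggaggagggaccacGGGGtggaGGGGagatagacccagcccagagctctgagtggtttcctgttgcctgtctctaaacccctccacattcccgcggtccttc
LOX: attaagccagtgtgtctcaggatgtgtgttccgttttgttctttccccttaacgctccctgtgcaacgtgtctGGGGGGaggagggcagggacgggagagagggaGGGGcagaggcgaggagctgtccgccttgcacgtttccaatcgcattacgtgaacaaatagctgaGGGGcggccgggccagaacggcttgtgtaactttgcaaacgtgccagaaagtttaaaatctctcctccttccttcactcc
CCN2: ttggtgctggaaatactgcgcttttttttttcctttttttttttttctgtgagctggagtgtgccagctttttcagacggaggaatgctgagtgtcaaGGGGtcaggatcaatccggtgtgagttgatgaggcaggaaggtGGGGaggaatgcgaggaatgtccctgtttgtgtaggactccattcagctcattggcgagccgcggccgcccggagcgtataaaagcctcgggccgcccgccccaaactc
POSTN: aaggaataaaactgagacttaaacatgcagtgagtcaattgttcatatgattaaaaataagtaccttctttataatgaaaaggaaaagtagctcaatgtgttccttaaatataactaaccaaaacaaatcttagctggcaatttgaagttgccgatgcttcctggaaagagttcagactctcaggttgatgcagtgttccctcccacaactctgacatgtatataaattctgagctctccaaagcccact
In the FN1 promoter, 76.4% of the bases are G or C and there are 6 capital runs, and peaks covered 100% of it in senescent cells, 0% in quiescent cells and 100% in proliferating cells. The SPARC promoter is a purine-rich stretch with more G than C on the coding strand, a GC skew of 0.24 as (G − C)/(G + C), which was higher than in 91.8% of promoters. Peaks covered 50% of it in senescent cells, 100% in quiescent cells and 100% in proliferating cells. Of the LOX promoter, with 55.2% GC, peaks covered 100% in senescent cells, 73.6% in quiescent cells and 100% in proliferating cells. The CCN2 promoter, with 53.2% GC, was covered by peaks to 0% in senescent, 0% in quiescent and 100% in proliferating cells. The POSTN promoter has 36.4% GC, lower than all but 4.09% of promoters, holds no run of 4 G, and lay under no peak in any list.

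Each locus is taken below as the annotated gene with 1000 bp on each side, and the covered share is the percent of its bases under peaks. Among all protein-coding genes, 80.3% had a peak over the locus in the senescent list, 34.4% in the quiescent list and 83.4% in the proliferating list, against 7, 4 and 9 of the 10 matrix genes. A peak within 1000 bp of a gene start was found for the same numbers of matrix genes, 7, 4 and 9, beside 69.6% of all genes in the senescent list, 28.3% in the quiescent list and 75.6% in the proliferating list. For DCN, LUM and CCN1 either annotated end counted as a start. The matrix genes with a quiescent peak were FN1, SPARC, FBN1 and LOX. Median covered share over the 10 genes was 5.97% in senescent cells, 0% in quiescent cells and 11.6% in proliferating cells, beside 3.20%, 0% and 5.90% over all genes in the same order. The counts of genes with a peak were thus near those of protein-coding genes at large. The medians of covered share were above those of all genes in the senescent and proliferating lists, with no allowance for gene length. Beside the medians of genes of like length, DCN, LUM and POSTN were below in both of these lists and CCN2 in the senescent list. The other matrix genes were above.

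**Figure D1:**
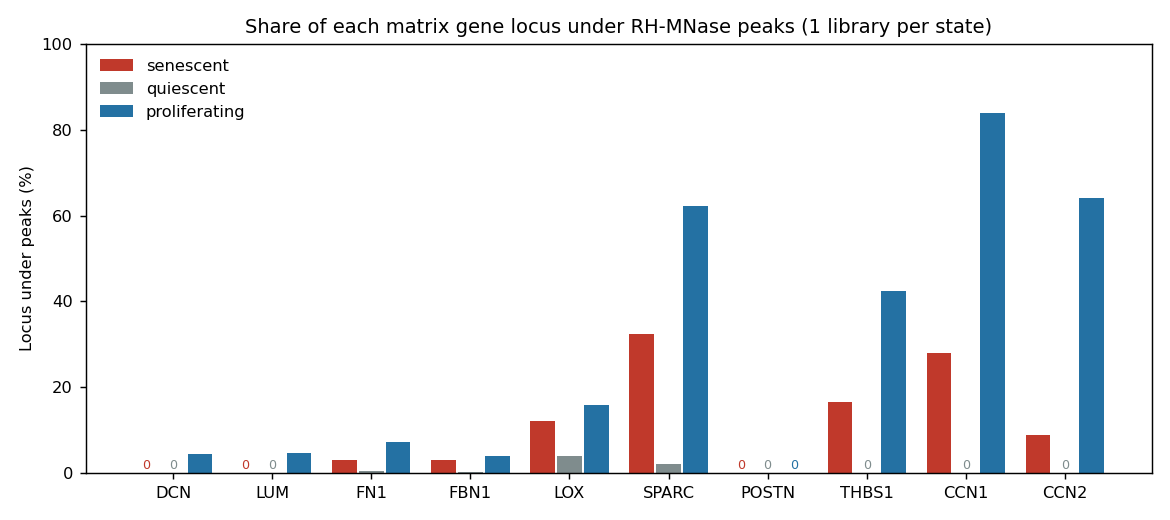
Percent of each locus (gene with 1000 bp on each side) under R-loop peaks, for the 10 matrix genes in 1 senescent, 1 quiescent and 1 proliferating library. CCN1 reached 27.9% in senescent and 83.9% in proliferating cells, and POSTN was at 0% in all lists.

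The small leucine-rich proteoglycans were the only 2 of the 10 genes with peaks in the proliferating list alone. DCN (gene ID 1634, chr12:91140484-91182817) encodes decorin, which binds collagen fibrils and sequesters TGF-β. It had 0 senescent, 0 quiescent and 5 proliferating peaks, covering 0%, 0% and 4.49% of its locus. All 5 peaks lay near the gene's ends or toward the higher-coordinate end, and 2 of them, 195 and 560 bp wide with scores of 40 and 38, ranked above 81.9% and 79.8% of the proliferating list. The nearest senescent peak to DCN lay outside the locus, 1847 bp below the annotated gene, so that with flanks of 3000 bp the covered share was 0.819% in senescent and 4.68% in proliferating cells. The nearest quiescent peak was 1615 kb away. LUM (gene ID 4060, chr12:91102629-91111494), the neighbouring gene for lumican, a keratan sulphate proteoglycan that regulates fibril diameter, had 0 senescent, 0 quiescent and 1 proliferating peak, a 492 bp peak over its higher-coordinate end that covered 4.53% of the locus. Its nearest senescent peak lay 26.7 kb away. Both covered shares in proliferating cells were below the medians for genes of like length, taken from 10 equal length classes of the protein-coding genes, which were 5.14% for DCN and 15.8% for LUM.

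FN1 (gene ID 2335, chr2:215360865-215436068) encodes fibronectin, the adhesive glycoprotein that integrins assemble into fibrils. It had 3 senescent, 1 quiescent and 7 proliferating peaks, and 2.96%, 0.528% and 7.22% of its locus was covered. The main peak stood at the start in every list. It was 1986 bp wide in senescent cells with a score above 93.9% of that list, 408 bp wide in quiescent cells with a score above 3.29%, and 2928 bp wide in proliferating cells with a score above 95.9%. The quiescent peak lay wholly inside the transcribed side, 135 to 542 bp after the start, whereas the other 2 spanned the start. Of the 6 proliferating peaks further into the gene, 2 had a senescent counterpart, one at 1619 bp after the start and one at 33547 bp, and the 4 between them had none. FN1-DT, a divergent noncoding transcript, overlaps the FN1 gene at this start, and ATIC overlaps the far end. MapR peaks carry no strand, so signal from FN1 and from FN1-DT cannot be told apart.

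FBN1 (gene ID 2200, chr15:48408313-48645709) encodes fibrillin-1, the core protein of microfibrils, and is by far the longest gene of the 10 at 237397 bp. It had 15 senescent, 1 quiescent and 14 proliferating peaks, covering 3.07%, 0.191% and 4.01% of the locus. These shares exceeded the medians for genes of like length, 0.943% in the senescent list and 1.61% in the proliferating list. The start used was chr15:48644970, which lies inside the annotated gene. At the start, senescent cells had a 2129 bp peak with a score above 54.3% of the list and a 482 bp peak upstream of it, quiescent cells had 1 peak of 458 bp, and proliferating cells had 1 peak of 3259 bp whose score ranked above 97.0% of the list. Away from the start the lists differed in which places they called. Of the 15 senescent peaks 7 had no proliferating counterpart, and of the 14 proliferating peaks 7 had no senescent one. Over the 10 genes 8 senescent peaks met no proliferating peak, and the one outside FBN1 was at SPARC. The noncoding gene FBN1-DT lies 96 bp beyond the annotated gene, where the upstream senescent peak and the proliferating start peak reach it, and LOC124903488 lies inside the gene.

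LOX (gene ID 4015, chr5:122063195-122078259) encodes lysyl oxidase, the copper enzyme that starts the crosslinking of collagen and elastin. It had 1 senescent, 2 quiescent and 1 proliferating peaks, all at the start, and 12.0%, 3.84% and 15.9% of the locus was covered. The senescent peak was 2056 bp wide and the proliferating peak 2720 bp, and the proliferating one contained the senescent one. Of the 10 genes LOX had the largest quiescent share. Its 405 bp quiescent peak, 971 to 1375 bp after the most upstream start, had a score above 88.0% of the quiescent list. That peak spanned the further annotated starts of LOX, at chr5:122077223 and chr5:122077174. The other quiescent peak covered 250 bp upstream of every annotated start. The quiescent share of LOX exceeded that of 92.4% of all genes, beside 78.7% for its senescent and 74.2% for its proliferating share. SRFBP1, a gene for an SRF-binding protein, is annotated over the whole of LOX, so peaks there belong to both annotations.

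SPARC (gene ID 6678, chr5:151661096-151686915) encodes osteonectin, a collagen-binding matricellular protein that acts as a collagen chaperone. It carried peaks along its length, and 12 senescent, 2 quiescent and 10 proliferating peaks covered 32.3%, 2.09% and 62.2% of the locus. The senescent share exceeded that of 94.5% of genes and the proliferating share that of 97.0%. The senescent peaks were more numerous but narrower, and a 5532 bp proliferating peak over the start overlapped 3 senescent peaks and a 4141 bp proliferating peak further in overlapped 4. At the start itself, the senescent peak was 445 bp wide and lay 126 to 570 bp upstream, and its score of 40 ranked above 97.0% of the senescent list, the highest rank of any senescent peak over the 10 genes. A second block stood at the far end, with 1 senescent peak of 2535 bp and 1 proliferating peak of 2974 bp. Each of these overlapped a quiescent peak that lay outside the locus. The noncoding gene CLMAT3 overlaps SPARC and its start, and LOC105378231 lies beyond its far end.

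THBS1 (gene ID 7057, chr15:39581079-39599466) encodes thrombospondin-1, which activates latent TGF-β and inhibits angiogenesis. It had 3 senescent, 0 quiescent and 8 proliferating peaks, with 16.6%, 0% and 42.5% of the locus covered. The start peak was 3487 bp wide in senescent cells, wider than 99.7% of that list though its score ranked above only 59.2%, and 5412 bp wide in proliferating cells, with a score above 90.5%. The 3 senescent peaks lay within the first 5625 bp of the gene or upstream of its start, and each had a proliferating counterpart. The 5 other proliferating peaks, 7893 to 16906 bp after the start, had none. THBS1-IT1 and FSIP1 overlap the gene and LOC124903470 ends 85 bp before it. The nearest quiescent peak lay 335 kb away.

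POSTN (gene ID 10631, chr13:37562585-37598768) encodes periostin, a TGF-β-induced matricellular protein that supports collagen fibril formation. It had 0 senescent, 0 quiescent and 0 proliferating peaks over 36184 bp. The nearest senescent peak was 22.0 kb from the gene, the nearest quiescent one 743 kb and the nearest proliferating one 57.7 kb. No peak in any list was also the state of 14.2% of all protein-coding genes.

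CCN1 (gene ID 3491, chr1:85580761-85583950), formerly CYR61, encodes an integrin-binding matricellular protein. Its locus had the highest proliferating share of the 10, with 2 senescent, 0 quiescent and 2 proliferating peaks over 27.9%, 0% and 83.9% of it. That proliferating share exceeded 99.0% of all genes, and the senescent share 92.8%. A single proliferating peak of 7933 bp, wider than 99.9% of that list, ran over most of the gene and beyond its lower-coordinate end into DDAH1 and LOC124904208, and it overlapped 4 senescent peaks, 2 of them outside the locus. The senescent peaks within the locus were 389 bp and 1209 bp wide, with scores above 63.8% and 10.7% of their list. The nearest quiescent peak lay 11.5 kb away.

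CCN2 (gene ID 1490, chr6:131948176-131951372), also called CTGF, encodes a matricellular cofactor of TGF-β in fibrosis. It had 1 senescent, 0 quiescent and 1 proliferating peak, covering 8.87%, 0% and 64.0% of the locus. The proliferating peak was 3502 bp wide and spanned the start, from 1177 bp upstream to 2324 bp downstream. The senescent peak was 461 bp wide, lay inside the gene at 781 to 1241 bp after the start and inside the proliferating peak, and had a score above only 10.7% of its list. CCN2 lies wholly within CCN2-AS1, an antisense noncoding gene. For genes of like length to CCN1 and CCN2 the median covered share was 13.1% in the senescent list and 23.1% in the proliferating list, so CCN2 was below that median in senescent cells and above it in proliferating cells.

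**Figure D2:**
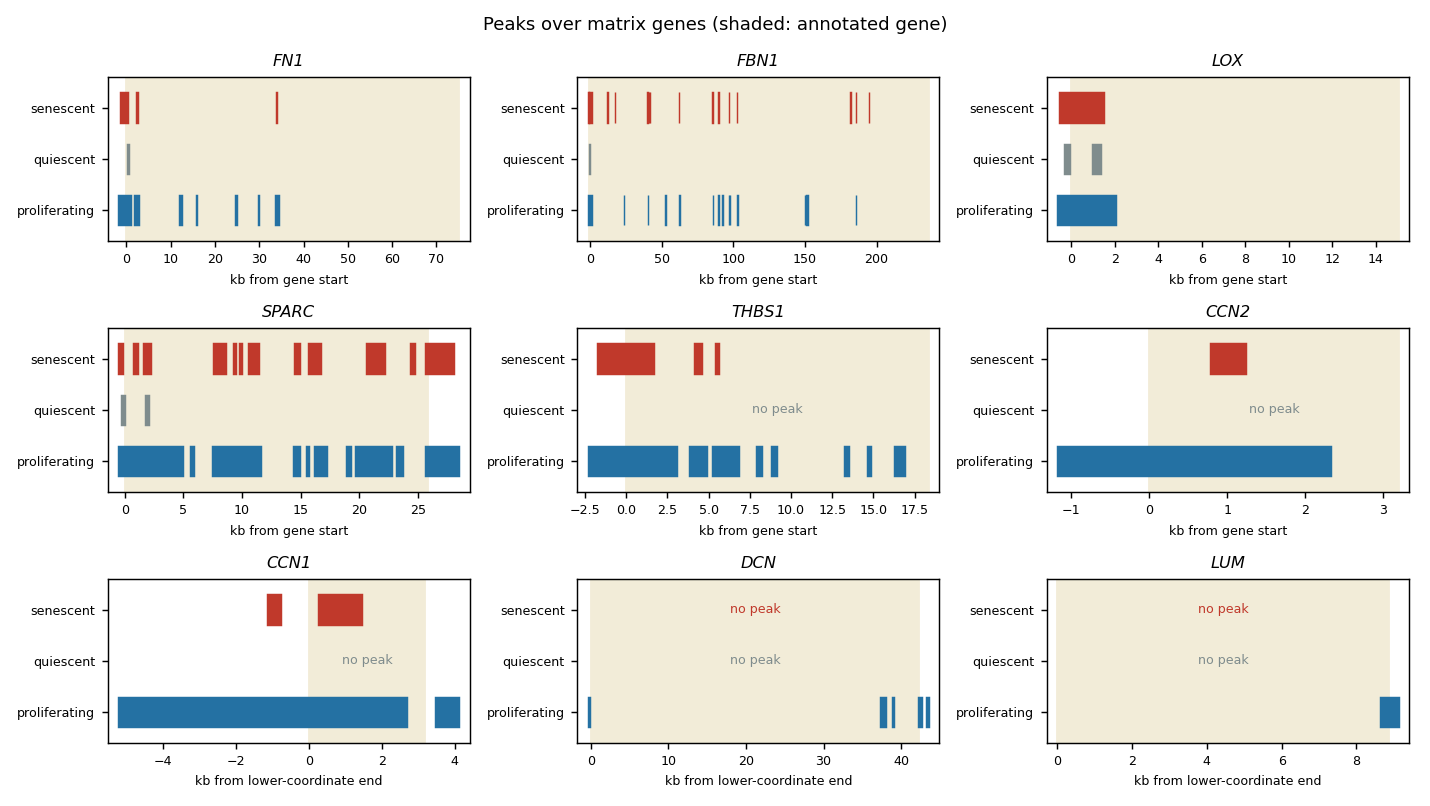
Peaks (bars) over the 9 loci with a peak, POSTN having none, with 1 track each for the senescent, quiescent and proliferating list and the annotated gene shaded. The x axis gives kb from the gene start, or from the lower-coordinate end for CCN1, DCN and LUM, and the wide proliferating peaks of SPARC, THBS1, CCN1 and CCN2 stand over narrower or fewer senescent ones.

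Senescent and proliferating cells were compared by the ratio of covered shares. At least 2-fold lower in senescent cells were 6 of the 9 genes with a peak in either list, beside 35.8% of all such genes, and 0 of 9 were at least 2-fold higher, beside 5.08%. These 6 were DCN, LUM, FN1, THBS1, CCN1 and CCN2. All 9 were lower by some amount with the lists as deposited, as were 84.5% of all genes. No senescent peak was left at 2 of the 9 genes with a proliferating peak, beside 6.57% of all such genes. The ratio of senescent to proliferating share was 0.139 at CCN2, 0.332 at CCN1, 0.391 at THBS1, 0.410 at FN1, 0.519 at SPARC, 0.756 at LOX and 0.766 at FBN1. Over the 7 genes the median was 0.410, a log2 ratio of −1.29, and over the 15448 genes with peaks in both lists it was 0.622, a log2 ratio of −0.69. CCN2 had a lower ratio than all but 1.53% of those genes and CCN1 than all but 12.8%, while 68.3% of genes had a lower ratio than FBN1.

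**Figure D3:**
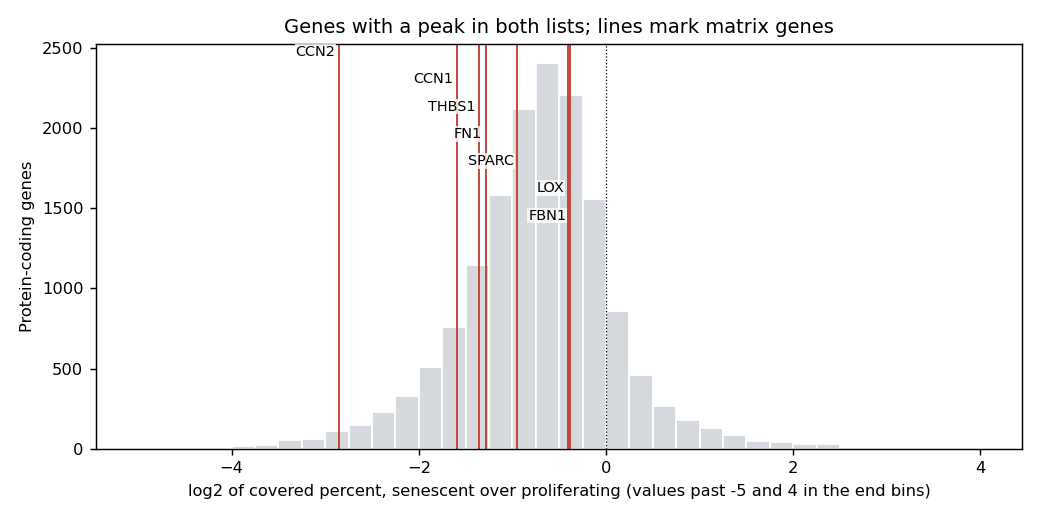
Histogram of the log2 ratio of covered share, senescent over proliferating (x axis), over 15448 protein-coding genes with a peak in both lists (y axis, number of genes). Red lines mark the 7 matrix genes, from CCN2 at −2.85 to FBN1 at −0.38.

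The senescent list covers less of the genome than the proliferating one, and the ratios were therefore also taken over equal lengths. With the proliferating peaks of highest score kept until they covered as much as all senescent peaks, which left 40460, 4 genes stayed at least 2-fold lower in senescent cells, namely DCN, LUM, CCN1 and CCN2, beside 19.7% of all genes, and 17.7% of all genes were then at least 2-fold higher. FN1 had 2.96% covered in senescent and 5.31% in proliferating cells, THBS1 had 16.6% and 27.8% in the same order, and SPARC 32.3% and 54.9%. FBN1 changed direction, with 3.07% in senescent and 2.25% in proliferating cells. With these 40460 proliferating peaks, LUM, LOX, CCN1 and CCN2 kept the shares of the full lists, and DCN had 0% in senescent and 1.70% in proliferating cells. SPARC also changed direction when both lists were shortened to the 9736 peaks of the quiescent list, and again when both were shortened to its covered length, with 1.60% in senescent and 0% in proliferating cells each time. At 9736 peaks FN1 stayed lower in senescent cells, with 1.89% against 2.62% in proliferating cells. FBN1, LOX and THBS1 then had 0% in senescent cells, against 1.36%, 15.9% and 19.9% in proliferating cells. DCN, LUM, CCN1 and CCN2 had no peak left in either list.

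Quiescent shares were lower than proliferating ones at the 9 genes with a peak, with the lists as deposited. At least 2-fold lower than in proliferating cells were 9 of 9 genes, beside 99.1% of all genes, and 0 of 9 were at least 2-fold higher, beside 0.00605%. No quiescent peak was present at 5 of the 9, beside 58.7% of all genes with a proliferating peak. The matrix genes therefore had counts near those of genes at large. With the proliferating list reduced by score to the 9736 strongest peaks, the quiescent share was 0.528% against 2.62% in proliferating cells at FN1, 0.191% against 1.36% at FBN1, 3.84% against 15.9% at LOX and 0% against 19.9% at THBS1. SPARC turned the other way, with 2.09% in quiescent and 0% in proliferating cells. At equal covered length, which left 2056 proliferating peaks, no gene was lower in quiescent cells, and FN1, FBN1, LOX and SPARC kept their quiescent shares against 0% in proliferating cells. Both comparisons with proliferating cells share that library.

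Set against quiescent cells, senescent cells had at least a 2-fold higher share at 7 of 7 genes, beside 94.3% of all genes, and at least a 2-fold lower share at 0 of 7, beside 0.326%. The ratio was 3.14 at LOX, 5.60 at FN1, 15.5 at SPARC and 16.1 at FBN1, and THBS1, CCN1 and CCN2 had no quiescent peak. With equal numbers of peaks FN1 alone stayed higher in senescent cells, at 1.89% against 0.528% in quiescent cells. SPARC then had 1.60% in senescent and 2.09% in quiescent cells, FBN1 had 0% in senescent and 0.191% in quiescent cells, and LOX had 0% in senescent and 3.84% in quiescent cells. When the senescent list was shortened to the quiescent covered length, leaving 4003 peaks, FN1 turned as well, with 0% in senescent and 0.528% in quiescent cells, and no gene was higher in senescent cells.

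Counting an overlap of at least 1 bp, 29 of the 37 senescent peaks over the 10 genes met a proliferating peak, beside 65.7% of the whole senescent list, and 6 of 37 met a quiescent peak, beside 9.93%. All 6 quiescent peaks met a senescent peak, beside 94.1% of the quiescent list, and all 6 met a proliferating peak, beside 99.4%. Of the 49 proliferating peaks 23 met a senescent peak, beside 49.9% of the list, and 5 met a quiescent peak, beside 8.25%. In bases, 82.4% of the senescent coverage of the 10 genes also lay under proliferating peaks, and 39.6% of the proliferating coverage lay under senescent peaks. Over all genes these were 73.2% and 45.2%.

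Peaks at gene starts and elsewhere were counted apart. For the 7 genes with a placed start, all 6 proliferating peaks within 1000 bp of a start met a senescent peak, beside 81.8% of such peaks over all genes, and 16 of 35 elsewhere did, beside 42.2%. The 26 proliferating peaks with no senescent counterpart were 7 at FBN1, 5 at DCN, 5 at THBS1, 4 at FN1, 3 at SPARC, 1 at LUM and 1 at CCN1. Peaks wider than 2000 bp were 4 of 37 in senescent cells, 0 of 6 in quiescent cells and 10 of 49 in proliferating cells, beside 2.55%, 0.175% and 8.05% of the 3 lists. Median width over the 10 genes was 461 bp in senescent, 357 bp in quiescent and 568 bp in proliferating cells, close to the medians of the lists.

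The deposited score is a whole number whose scale is not stated, and it was used only to rank peaks within a list. Ranked above the middle of their list were 19 of 37 senescent, 3 of 6 quiescent and 26 of 49 proliferating peaks, and a peak's score exceeded a median of 54.3%, 55.5% and 52.7% of its list in that order. In the proliferating list the start peaks stood higher, with FBN1 at 97.0%, FN1 at 95.9%, LOX at 92.2%, THBS1 at 90.5% and SPARC at 89.2%. CCN2, at 70.5%, was lower. In the senescent list the start peaks of SPARC at 97.0% and FN1 at 93.9% ranked high. Those of LOX at 78.2%, THBS1 at 59.2% and FBN1 at 54.3% were lower. Peaks inside the gene but within 1000 bp of the start were at 43.0% for SPARC and 10.7% for CCN2.

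**Figure D4:**
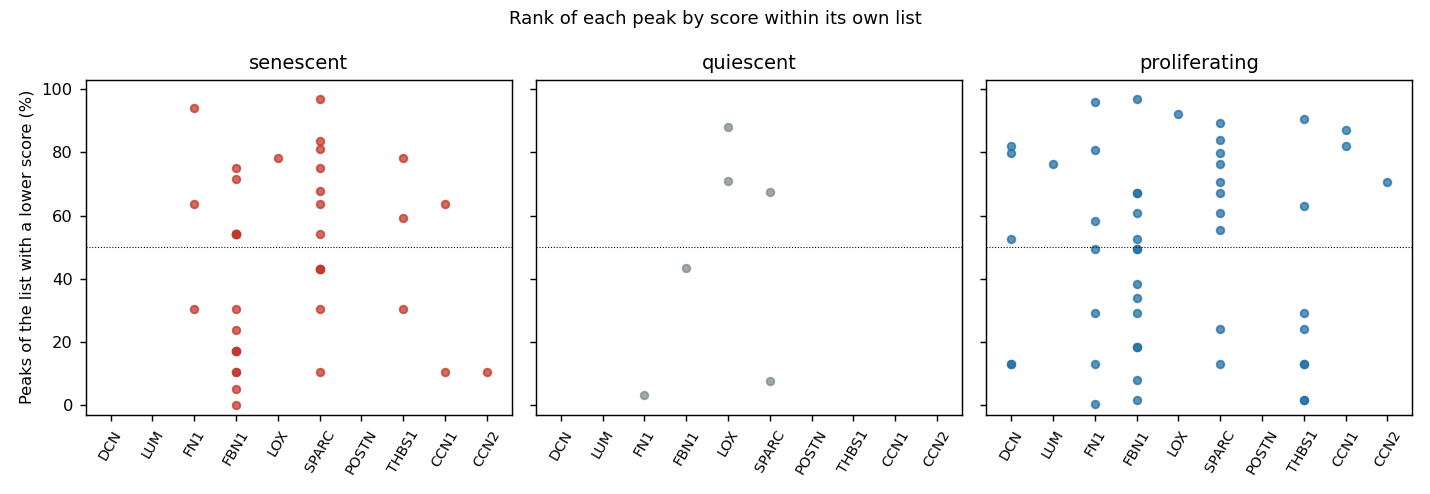
Rank of each peak over the matrix genes within its own list, as the percent of that list with a lower score, by gene and by state (senescent, quiescent, proliferating). Each point is 1 peak, the dotted line marks the middle of the list, and the proliferating start peaks of FBN1 and FN1 stand at 97.0% and 95.9%.

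The promoters shown above were set beside all others by base composition. Over 22132 RefSeq promoters the median GC content was 62.0%, and 48.1% of them met a senescent peak, 14.6% a quiescent peak and 67.1% a proliferating peak. With promoters split into 5 equal classes of GC content, these shares were 12.9%, 1.49% and 24.3% in the lowest class, which holds POSTN, and 56.7%, 19.8% and 84.6% in the highest, which holds FN1. The shares were largest in the class just below the highest, which holds THBS1 and FBN1, at 66.8%, 23.3% and 86.7%. THBS1 and FBN1 both had 69.6% GC, and their promoters were covered to 100% in senescent and 100% in proliferating cells, with 0% and 22.0% in quiescent cells. The FBN1 window, chr15:48644971-48645220, lies inside the annotated gene, which extends upstream of the start used. LOX at its most upstream start and CCN2 differed by 2 percentage points of GC. That LOX promoter met peaks in all lists, and that of CCN2 in the proliferating list alone. At its further starts LOX had 61.2% and 66.4% GC, and those promoters also met peaks in all lists. The GC skew was 0.12 at the most upstream LOX start and −0.18 and −0.12 at the further ones. It was 0.19 at CCN2, beside a median of 0.011 over all promoters. Motifs were searched on both strands. The TEAD motif GGAATG occurred 3 times at CCN2, 1 time each at SPARC, THBS1 and FBN1 and in 10.5% of all promoters. The TATA box letters TATAAA occurred 2 times at POSTN and 1 time at CCN2, and in 9.0% of promoters, and the AP-1 motif TGANTCA occurred 1 time at POSTN and in 5.35%. The CArG box was in none of the 7 windows and in 1.18% of all promoters. On the coding strand GGGG was in 77.0% of all promoters and in those of 6 of these 7 genes. A match of letters is a description and does not show binding.

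**Figure D5:**
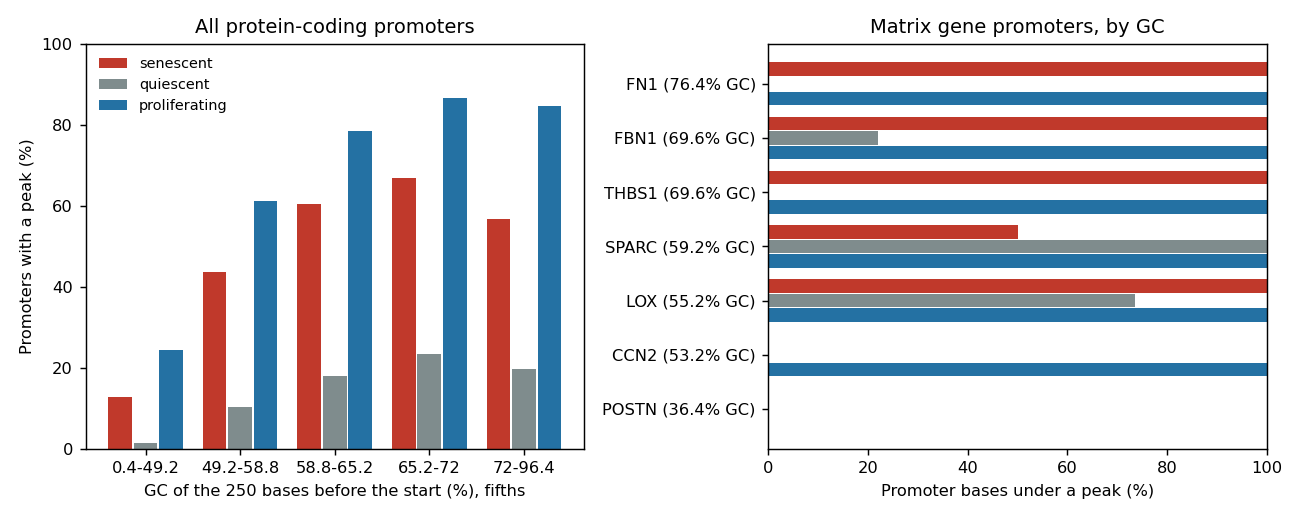
Left, percent of protein-coding promoters with a peak in the senescent, quiescent and proliferating list, in 5 equal classes of GC content of the 250 bases before the start. Right, percent of those bases under peaks for the 7 matrix genes with a RefSeq promoter, ordered by GC content, with POSTN at 0% in all lists and FN1 at 100% in senescent, 0% in quiescent and 100% in proliferating cells. LOX is drawn at its most upstream start.

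For the wider matrix, 66 other glycoprotein, proteoglycan and crosslinking enzyme genes were listed, with earlier results known, and all were found in the gene table. Of these 55 had a senescent, 37 a quiescent and 58 a proliferating peak, beside 80.3%, 34.4% and 83.4% of all genes. Their median covered share was 6.09%, 0.192% and 12.9% in the same order. Of the 59 with a peak in senescent or proliferating cells, 20 were at least 2-fold lower in senescent cells, beside 35.8% of all such genes. At least 2-fold higher was 1 of the 59, beside 5.08%. In percentage points the largest differences downward were at EMILIN1, an elastic fibre glycoprotein, with 46.9% in senescent and 73.0% in proliferating cells, COMP, the cartilage thrombospondin, with 2.39% and 27.5%, and LTBP3, which binds latent TGF-β, with 22.6% and 41.7%. The largest upward were at VTN, the adhesive plasma protein vitronectin, with 30.9% in senescent and 16.7% in proliferating cells, PCOLCE, an enhancer of procollagen cleavage, with 54.3% and 44.2%, and FBLN2, a fibulin, with 8.26% and 4.67%. Against proliferating cells, quiescent cells had at least a 2-fold lower share at 57 of 58, beside 99.1% of all genes. A 2-fold higher share was found at 0, beside 0.00605%. The largest differences were at EFEMP2, with 13.4% in quiescent and 70.3% in proliferating cells, EMILIN1, with 23.4% and 73.0%, and MFAP2, with 0% and 48.8%. Senescent cells had at least a 2-fold higher share than quiescent cells at 53 of 55, beside 94.3% of all genes. The genes whose 3 covered shares were closest to those of CCN1, by Euclidean distance over the 3 libraries, were ISL2 at 2.79 percentage points, the histone gene H2AC18 at 2.82 and the stress-response gene PPP1R15A at 2.87.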

How the data were processed

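Peaks of 3 MapR RH-MNase libraries, 1 per state, were used. The deposited lists give each peak's position and a score, a whole number made by the authors on a scale that no source gives. Read quality, alignment and peak calling tools named in the submitters' processing notes are MACS2 2.2.7.1, Bowtie2 2.4.5 and FastQC 0.11.9, with GRCh38 as build. Settings, filters and any control library are not given in those notes. Peak positions were made 1-based, and gene spans were taken from RefSeq (GRCh38.p14). Mitochondrial and Y-linked genes, and those on unplaced or alternate sequences, were not used. The table has no exons or UTRs. Starts and 250 bp promoters came from RefSeq promoter sequences, and a gene without an entry was given a start at either end, a choice planned for missing strands. Each gene was extended by 1000 bp on both sides to give its locus, and covered shares count merged peaks. With 1 library per state no test was run, since counting bases says nothing of the spread between cultures. Read depth is unknown.

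The members and lists were chosen with earlier results of these data known. All 10 members are named, with genes that overlap a locus or lie within 5000 bp of it. Of the other matrix genes the 3 largest differences in each direction are named, and for the member with the highest proliferating share the 3 nearest genes. Alternatives were flanks of 0, 500 and 3000 bp, folds of 1.5 and 3, start windows of 500 and 3000 bp, peaks at or above the median score, lists reduced by score to equal numbers of peaks or equal covered length, overlap of at least 50% of both peaks, and peaks within 1000 bp of each other. The scripts were checked on simulated data. Python 3.11.15, numpy 2.4.6, pandas 2.3.3, scipy 1.17.1 and matplotlib 3.10.9 were used.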

Additional observations from a re-analysis of the deposited data

How the results depend on the processing

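No paired analysis was possible because each state has 1 library and the labels give no replicate numbers. Of 102 recomputed counts, 72 stayed within 1.5 times the reported count and 30 moved, all of these under a choice of which peaks are used or what overlap counts. The count of genes at least 2-fold lower in senescent than in proliferating cells ran from 4 to 7 over its alternatives, and 0 were higher in each. In that range, equal lists meant the proliferating list cut to the size of the senescent one. With both cut to the size of the quiescent list, SPARC was higher in senescent cells, with 1.60% against 0% in proliferating cells. FN1, FBN1, LOX and THBS1 stayed lower in senescent cells when both were cut to the quiescent list's number of peaks. With lists reduced to the quiescent list's number of peaks, genes with a peak were 2 in senescent and 4 in proliferating cells, and with its covered length 1 and 0. The counts with a start peak were the same, 2 and 4 and then 1 and 0. With peaks at or above the median score, 2 genes had a quiescent peak and 1 a quiescent start peak. In quiescent against proliferating cells, 4 genes were lower and 1 higher with equal numbers, and 0 lower and 4 higher with equal covered length. In senescent against quiescent cells, 2 were lower and 1 higher with equal numbers, and 3 lower and 0 higher with equal covered length. Shares over all genes at these cuts are not given here for comparisons with the quiescent list. These counts therefore cannot be called particular to the matrix genes. Where partners had to share 50% or more of each peak, 0 senescent peaks had a quiescent partner and 8 a proliferating one, 0 quiescent peaks had a senescent and 0 a proliferating partner, and 8 proliferating peaks had a senescent and 0 a quiescent partner. With peaks at or above the median score, 3 senescent peaks had a quiescent and 17 a proliferating partner, 3 quiescent peaks had a senescent and 3 a proliferating one, and 15 proliferating peaks had a senescent and 3 a quiescent one. The covered share of FBN1 turned round at equal covered length, as did that of SPARC with lists shortened to 9736 peaks or to the quiescent covered length. Of 180 recomputed covered shares, 88 moved by more than their 95% binomial interval, which treats bases as independent and covers counting error only.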

Other observations

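Besides POSTN, 7 of the 66 other matrix genes had no peak in any of the 3 lists, 10.6% of them beside 14.2% of all protein-coding genes. They were DPT, EPYC, KERA, MGP, OGN, SMOC2 and SPARCL1, and they were picked out after their values were seen. KERA, the keratocan gene, and EPYC, the epiphycan gene, encode small leucine-rich proteoglycans and lie beside LUM and DCN at chr12:91050491-91058024 and chr12:90963682-91004972 (GRCh38). In this run of 4 related genes, senescent and quiescent cells therefore had no peak over any locus, and proliferating cells had 6 peaks, 5 at DCN and 1 at LUM. SPARCL1, a relative of SPARC, had 0% of its locus covered in each list, whereas SPARC had 32.3% in senescent, 2.09% in quiescent and 62.2% in proliferating cells.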
